A study of Mus musculus with 6 samples.

Results

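A set of 10 genes of the basement membrane was followed in B16F10 melanoma tumours. They were taken by name from the 20938 genes of the deposited table, and all 10 were found: the type IV collagens Col4a1 and Col4a2, the laminin chains Lama4, Lama5, Lamb1 and Lamc1, the nidogens Nid1 and Nid2, the proteoglycan gene Hspg2, and Sparc. B16F10 is a pigmented mouse melanoma line, and the series concerns the effect on melanoma growth of YKL-40, a secreted protein related to chitinases. The compared groups were 3 tumours of B16F10 cells overexpressing YKL-40 and 3 control tumours. In both groups cells had been implanted under the skin of the hind leg of male C57BL/6 mice that were 6 weeks old, tumours were collected on day 19, and the labels give a WT genotype. The vector of either group, the species of the overexpressed sequence, the number of clones and whether each library came from its own mouse are not given in the sources used here, so the p-values below cover the spread among these libraries, which may be technical.

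A basement membrane is a thin sheet of matrix under epithelia, around blood vessels and around muscle fibres. Type IV collagen trimers and laminin trimers each build a network, and nidogens and perlecan link the networks. In tumours these sheets surround vessels and are crossed by invading cells, and their proteins can be made by endothelial cells, pericytes, fibroblasts and the tumour cells themselves. RNA of whole tumours cannot tell fewer cells of a type from less RNA per cell.

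Melanocyte markers were high in every library. Pmel, a structural protein of pigment granules, had 4049, 5461 and 5207 FPKM (fragments scaled to transcript length and library depth) in the YKL-40-labelled libraries and 3656, 3890 and 3710 FPKM in the controls, and Dct, an enzyme of pigment synthesis, averaged 2507 ± 235 FPKM in the YKL-40-labelled libraries and 3030 ± 289 FPKM in the controls (SD, n = 3 each). Of 8 melanocyte markers, 1 had an unadjusted p under 0.05 (18.0% of all tested genes did) and 0 passed in limma. In each library, between 10900 and 11301 genes reached 1 FPKM. Read totals are not given in the sources used here, so depth is known only as a rough estimate. Chil1, the mouse gene of YKL-40, was listed at 0 in all 3 YKL-40-labelled libraries and at 0.0644, 0 and 0.0242 FPKM in the controls. These values show no overexpression of the mouse gene and cannot show that of a sequence from another species, so directions below rest on the labels alone. Of 11241 tested genes, 49 (0.436%) differed with limma at a Benjamini-Hochberg adjusted p under 0.05, 41 of them higher and 8 lower. Without the second control 0 passed (1345 had an unadjusted p under 0.05), and without the second YKL-40-labelled library 198 were higher and 40 lower.

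Col4a1 and Col4a2 are shown by their promoters, because the pair starts from one stretch of DNA. Whether this stretch bears on their RNA levels was not tested. Both genes lie on chromosome 8 of mm10 (GRCm38), Col4a1 at 11198423 to 11312826 on the minus strand and Col4a2 at 11312805 to 11449287 on the plus strand, head to head, with 22 exon bases in common. The RefSeq windows of 300 bases around their starts (GRCm38.p6) overlap by 78 bases, with the same letters once 1 strand is reversed. The Col4a1 window is chr8:11312777-11313076 on the minus strand and the Col4a2 window is chr8:11312555-11312854 on the plus strand. Capitals mark CCAAT and the GC box GGGCGG, each read on both strands (ATTGG and CCGCCC), with no overlap between the marked motifs.
Col4a1: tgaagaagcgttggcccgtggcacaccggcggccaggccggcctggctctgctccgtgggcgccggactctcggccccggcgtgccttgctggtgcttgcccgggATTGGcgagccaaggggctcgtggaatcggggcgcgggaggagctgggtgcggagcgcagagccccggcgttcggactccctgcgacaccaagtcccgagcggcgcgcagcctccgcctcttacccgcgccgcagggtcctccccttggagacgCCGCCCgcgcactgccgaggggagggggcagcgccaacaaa
Col4a2: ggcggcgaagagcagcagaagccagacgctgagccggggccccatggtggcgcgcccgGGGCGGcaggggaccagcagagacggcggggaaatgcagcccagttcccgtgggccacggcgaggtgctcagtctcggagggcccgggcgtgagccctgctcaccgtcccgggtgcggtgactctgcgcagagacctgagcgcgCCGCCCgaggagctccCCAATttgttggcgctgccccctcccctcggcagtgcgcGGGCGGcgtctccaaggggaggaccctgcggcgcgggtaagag
The Col4a1 window held 1 CCAAT and 1 GC box, and the Col4a2 window 1 CCAAT and 3 GC boxes. The GC box of the Col4a1 window lies in the 78 shared bases and is the same site as the last GC box of the Col4a2 window. The TATA motif TATAAA was in neither. Of 32851 RefSeq windows of the same length, 37.4% held CCAAT, 35.7% the GC box and 13.6% TATAAA. Of the 10 genes, 7 had a window in the table. Among these, 4 held CCAAT, 6 the GC box and 0 TATAAA, and the GC content was 74.0% for Col4a1 and 73.7% for Col4a2. A match of letters is a description and does not show that a factor binds there. Of 27025 genes with a window, 11.9% have one that overlaps the window of another gene on the opposite strand.

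None of the 10 genes passed the test between the groups. Of all 10, which each exceeded 10 FPKM on average and passed the filter on low values, 0 were called higher and 0 lower in limma, against 0.365% higher and 0.0712% lower of all tested genes (0.436% in either direction). Without adjustment, 0 genes were higher and 1 was lower, Lama5, at a p under 0.05, where 8.71% of all tested genes were higher and 9.24% lower at such a p (18.0% in all). Differences are given on the log2(FPKM + 1) scale, as the YKL-40-labelled mean less the control mean. They ran from -0.50 to 0.13 with a median of -0.043, and over all tested genes the median was -0.041. The groups overlapped for all 10 genes, while 10.3% of the tested genes were higher and 14.2% lower without overlap (24.4% in all). For 8 of the 10 the group difference was smaller than the spread within the groups.

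**Figure D1:**
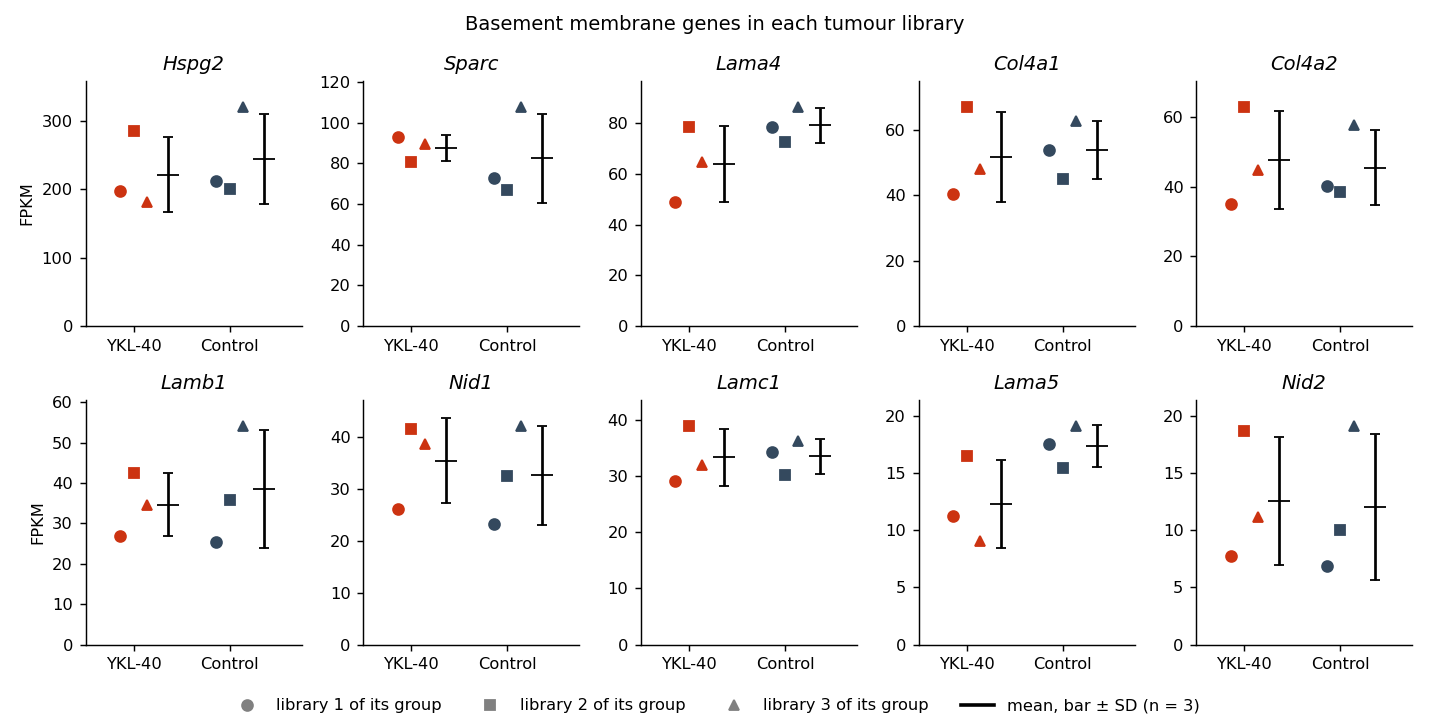
FPKM of the 10 basement membrane genes (1 panel each, y axis from 0) in 3 libraries of YKL-40-labelled and 3 of control tumours, each point a library and each bar the mean ± SD (n = 3). In all 10 panels the groups overlap, and the third control is the highest control.

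Type IV collagen is the covalently crosslinked network of the basement membrane, and its common trimer holds α1 chains from Col4a1 and an α2 chain from Col4a2. Col4a1 had 40.3, 66.9 and 48.0 FPKM in the YKL-40-labelled libraries, against 53.8, 44.9 and 62.7 FPKM in the controls. Col4a2 had 35.1, 62.9 and 45.0 FPKM in the YKL-40-labelled libraries and 40.2, 38.5 and 57.9 FPKM in the controls. In both genes the second YKL-40-labelled library was the highest of all 6 and the first was the lowest, with the controls between. The log2 difference was -0.073 ± 0.20 (SE) for Col4a1 (limma adjusted p = 0.878) and 0.048 ± 0.23 for Col4a2 (limma adjusted p = 0.938).

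The chains kept a narrow ratio. Col4a1 was above Col4a2 in each of the 6 libraries, by 1.15, 1.06 and 1.07 times in the YKL-40-labelled libraries and by 1.34, 1.16 and 1.08 times in the controls. The mean log2 ratio was 0.13 ± 0.063 in the YKL-40-labelled libraries and 0.25 ± 0.16 in the controls (SD, n = 3 each), a difference of -0.12 that did not pass (exact permutation test, two-sided, p = 0.2, with 0.1 the lowest value possible for groups of 3). Of the other type IV collagen chains, Col4a5 averaged 4.06 ± 0.701 FPKM in the YKL-40-labelled libraries and 4.34 ± 0.393 FPKM in the controls, and Col4a4 averaged 1.05 ± 0.328 FPKM in the YKL-40-labelled libraries and 1.17 ± 0.210 FPKM in the controls (SD, n = 3 each). Col4a3 reached at most 0.0444 FPKM and Col4a6 at most 0.0212 FPKM. Col4a1 and Col4a2 together made up between 93.1% and 96.3% of the summed FPKM of the 6 chains.

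Laminins are trimers of an α, a β and a γ chain, and the α chain carries the sites that cells bind. Lama4 (chromosome 10, 38965515 to 39110188, plus strand), the α4 chain known from vessel walls, had 48.8, 78.6 and 64.6 FPKM in the YKL-40-labelled libraries and 78.3, 72.8 and 86.3 FPKM in the controls. The second YKL-40-labelled library lay inside the control range and the others lay under it. The log2 difference was -0.32 ± 0.17 (limma adjusted p = 0.368). Lama5 (chromosome 2, 180176373 to 180225859, minus strand), the broadly expressed α5 chain, had 11.2, 16.5 and 9.05 FPKM in the YKL-40-labelled libraries against 17.6, 15.5 and 19.2 FPKM in the controls. Again only the second YKL-40-labelled library reached the control range. The log2 difference of -0.50 ± 0.20 had an unadjusted p of 0.0394 and did not pass (limma adjusted p = 0.255).

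Both α chains were below all controls once the second YKL-40-labelled library was left out. Without it the groups of Lama4, Lama5 and Hspg2 did not overlap, where this held for 41.6% of tested genes, and the differences of Lama4 and Lama5 were -0.48 and -0.73. Neither passed (limma adjusted p = 0.152 and 0.0650). The ratio of Lama4 to Lama5 was 4.34, 4.75 and 7.14 in the YKL-40-labelled libraries and 4.46, 4.71 and 4.50 in the controls. The third YKL-40-labelled library stood apart, and the mean log2 ratio differed by 0.21 (exact permutation test, two-sided, p = 0.6). Without that library the difference was -0.0042.

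Lama4 was the main α chain in every library, at 80.8% ± 2.93 of the summed α chain FPKM in the YKL-40-labelled libraries and 79.6% ± 0.453 in the controls. Lama5 took 15.5% ± 3.34 in the YKL-40-labelled libraries and 17.5% ± 0.487 in the controls (SD, n = 3 each). Of the remaining α chains, Lama2, the chain of muscle basement membranes, had 1.80, 2.83 and 2.37 FPKM in the YKL-40-labelled libraries and 1.68, 2.34 and 2.96 FPKM in the controls. Lama3, an epithelial chain, stayed under 1 FPKM, and Lama1 was listed at 0 in all YKL-40-labelled libraries and at up to 0.0113 FPKM in the controls.

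**Figure D2:**
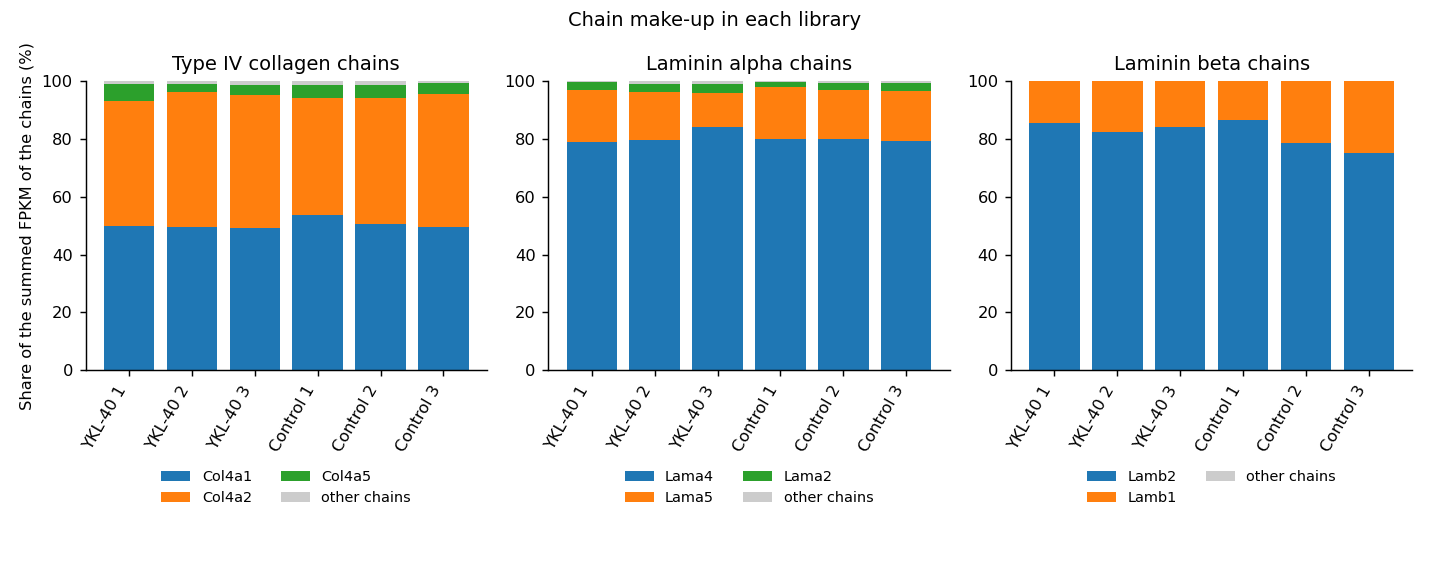
Share (%) of each chain in the summed FPKM of the type IV collagen, laminin α and laminin β chains, as stacked bars for each of the 6 libraries. Lama4 takes between 78.8% and 84.2% of the α chains, and Lamb2 between 75.1% and 86.4% of the β chains.

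The β1 chain gene Lamb1 (chromosome 12, 31265234 to 31329644, plus strand) had 26.9, 42.4 and 34.6 FPKM in the YKL-40-labelled libraries and 25.4, 35.7 and 54.1 FPKM in the controls. The controls alone spanned the values of all 3 YKL-40-labelled libraries, and the log2 difference was -0.10 ± 0.28 (limma adjusted p = 0.875). The other main β chain was more abundant. Lamb2, the β2 chain, had 159, 199.99 and 183 FPKM in the YKL-40-labelled libraries and 161, 129.9 and 163 FPKM in the controls, a log2 difference of 0.26 ± 0.13 that did not pass (limma adjusted p = 0.356). Lamb1 made up 15.9% ± 1.50 of the β chain FPKM in the YKL-40-labelled libraries and 20.0% ± 5.80 in the controls (SD, n = 3 each). Lamb3, of epithelial laminin, did not exceed 0.0137 FPKM.

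Lamc1 (chromosome 1, 153218922 to 153332786, minus strand) encodes the γ1 chain that most laminins share. It was the steadiest of the 10 genes, with 29.0, 38.9 and 32.0 FPKM in the YKL-40-labelled libraries and 34.2, 30.1 and 36.2 FPKM in the controls. Its highest value was 1.34 times its lowest, and the log2 difference was -0.013 ± 0.13 (limma adjusted p = 0.969). Lamc3, of the γ3 chain, did not exceed 0.269 FPKM.

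Nidogens bind both laminin γ1 and type IV collagen. Nid1 (chromosome 13, 13437551 to 13512269, plus strand) had 26.1, 41.4 and 38.6 FPKM in the YKL-40-labelled libraries and 23.1, 32.4 and 42.1 FPKM in the controls. Nid2 (chromosome 14, 19751265 to 19811787, plus strand) had 7.76, 18.7 and 11.2 FPKM in the YKL-40-labelled libraries and 6.85, 10.0 and 19.1 FPKM in the controls. In both genes a low and a high library occurred in each group. The log2 differences were 0.13 ± 0.24 for Nid1 (limma adjusted p = 0.815) and 0.091 ± 0.39 for Nid2 (limma adjusted p = 0.929).

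Nid2 varied most among the 10 genes, with a highest value 2.80 times its lowest. Of its exon bases, 8.45% (437 bases, GENCODE M21) are shared with Rtraf on the opposite strand. The kit keeps no strand, so reads there cannot be assigned. Rtraf had 24.1, 22.2 and 24.0 FPKM in the YKL-40-labelled libraries and 25.8, 26.5 and 24.3 FPKM in the controls. The part of the shared reads in the Nid2 values was not tested. Nid1 exceeded Nid2 by 3.36, 2.21 and 3.45 times in the YKL-40-labelled libraries and by 3.37, 3.24 and 2.20 times in the controls. The ratio, in which Nid2 is the divisor, was lowest in the libraries with the most Nid2. Its log2 mean differed by 0.033 between the groups (exact permutation test, two-sided, p = 0.6).

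Hspg2 (chromosome 4, 137468769 to 137570630, plus strand) encodes perlecan, the heparan sulfate proteoglycan of basement membranes. It was the most abundant of the 10 genes, at rank 310 of 11241 by mean FPKM. It had 198, 285 and 181 FPKM in the YKL-40-labelled libraries and 212, 199.7 and 319.7 FPKM in the controls. The highest and the second highest values came from different groups, and the log2 difference was -0.13 ± 0.23 (limma adjusted p = 0.796).

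Sparc (chromosome 11, 55394500 to 55423183, minus strand) encodes a collagen-binding matricellular protein that many stromal and tumour cells secrete. It had 92.9, 80.5 and 89.6 FPKM in the YKL-40-labelled libraries and 72.8, 66.9 and 108 FPKM in the controls. All 3 YKL-40-labelled values lay between the lower pair of controls and the third control. The log2 difference was 0.12 ± 0.18 (limma adjusted p = 0.770), and 0.32 without the third control, where the groups no longer overlapped (as for 37.8% of tested genes) and the call was still not made (limma adjusted p = 0.225).

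By mean FPKM over the 6 libraries the order of the genes was Hspg2, Sparc, Lama4, Col4a1, Col4a2, Lamb1, Nid1, Lamc1, Lama5 and Nid2. FPKM is per length, so these levels can be compared. Each gene exceeded its next lower neighbour in 6 of 6 libraries, except that Sparc exceeded Lama4 in 4, Lamb1 exceeded Nid1 in 5, Nid1 exceeded Lamc1 in 4 and Lama5 exceeded Nid2 in 4.

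**Figure D3:**
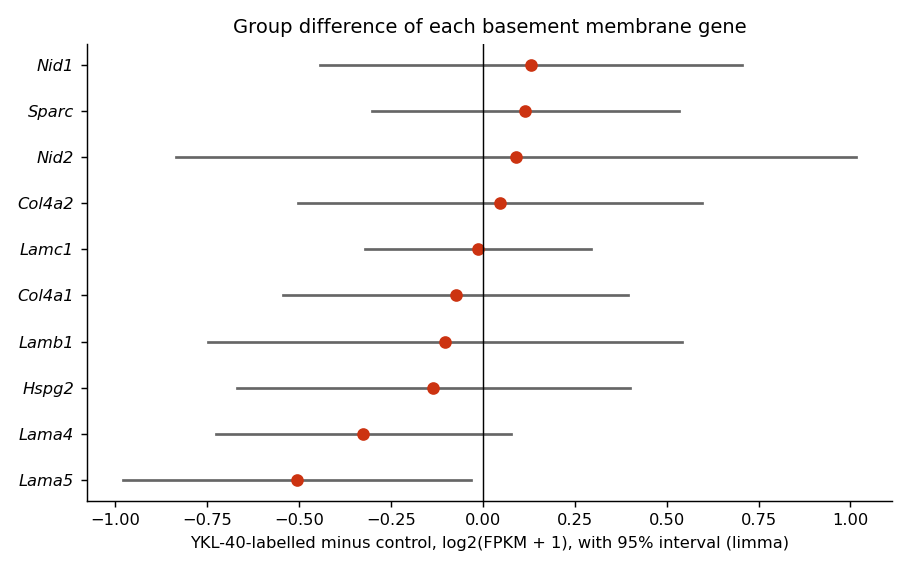
Difference of each gene on the log2(FPKM + 1) scale, YKL-40-labelled mean less control mean (x axis), with the unadjusted 95% interval from limma. Of the 10 intervals, 9 lie within 1 of 0 in both directions, and that of Lama5, from -0.98 to -0.032, leaves out 0.

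The intervals give the range of differences that these libraries leave possible. For 9 of 10 genes the unadjusted 95% interval of the log2 difference stayed within 1 in both directions, and the exception was Nid2, from -0.83 to 1.01. For 4 genes it stayed within 0.6: Col4a1, Col4a2, Lamc1 and Sparc. Lamc1 had the narrowest interval, from -0.32 to 0.29.

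The 10 genes tended to be high in the same libraries, 1 in each group. The third control was the highest control for 10 of 10 genes, and the second YKL-40-labelled library the highest of its group for 9 of 10, all but Sparc. Among tested genes these shares were 31.1% and 40.0%, and both held for 11.3%. The mean log2(FPKM + 1) of the 10 genes was 5.16, 5.75 and 5.36 in the YKL-40-labelled libraries and 5.30, 5.35 and 5.85 in the controls. The same libraries had the highest estimated depth of their groups. It was 1.21 in the second YKL-40-labelled library and 1.33 in the third control, relative to the first control. The part of depth in these levels was not tested. These 10 genes were chosen as a family and are not independent observations.

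Markers of vessel cells followed the same libraries. Of 12 endothelial markers, the third control was the highest control for 12 and the second YKL-40-labelled library the highest of its group for 10. Their summed FPKM was 98.6, 125 and 101 in the YKL-40-labelled libraries and 68.3, 96.5 and 143 in the controls. Pecam1, an endothelial adhesion molecule, had 23.5, 41.1 and 35.4 FPKM in the YKL-40-labelled libraries and 19.2, 28.8 and 46.3 FPKM in the controls. Egfl7, a protein that endothelial cells secrete, averaged 28.9 ± 7.75 FPKM in the YKL-40-labelled libraries, where the first was highest, and 25.7 ± 9.05 FPKM in the controls (SD, n = 3 each). Of 8 tested pericyte and smooth muscle markers, 7 followed both libraries, and their list of 10 summed to 39.1, 124 and 99.3 FPKM in the YKL-40-labelled libraries and to 64.3, 91.5 and 129 FPKM in the controls. Acta2, smooth muscle actin, had 6.11, 45.5 and 29.0 FPKM in the YKL-40-labelled libraries and 10.7, 24.6 and 45.7 FPKM in the controls. Rgs5, a pericyte marker, followed neither library. It had 17.9, 25.9 and 33.0 FPKM in the YKL-40-labelled libraries and 24.8, 28.3 and 24.7 FPKM in the controls. No marker on either list was at 0 in all libraries, and Cnn1 was listed at 0 in 3 of them. Both lists had 0 genes that passed in limma (0.436% of all tested genes did). At an unadjusted p under 0.05 there were 1 endothelial marker (Tek) and 1 pericyte marker (Cspg4). Such a p was reached by 18.0% of all tested genes. The part of these cell types in the levels of the 10 genes was not tested. Skeletal muscle markers, whose fibres carry basement membranes of their own, also peaked in both libraries for 6 of 7 tested genes, as did 0 of 7 fibroblast and 1 of 7 leukocyte markers. The third control alone was the highest control for 7 of 7 muscle, 7 of 7 fibroblast and 7 of 7 leukocyte markers, and for 0 of 8 melanocyte and 0 of 2 adipocyte markers.

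**Figure D4:**
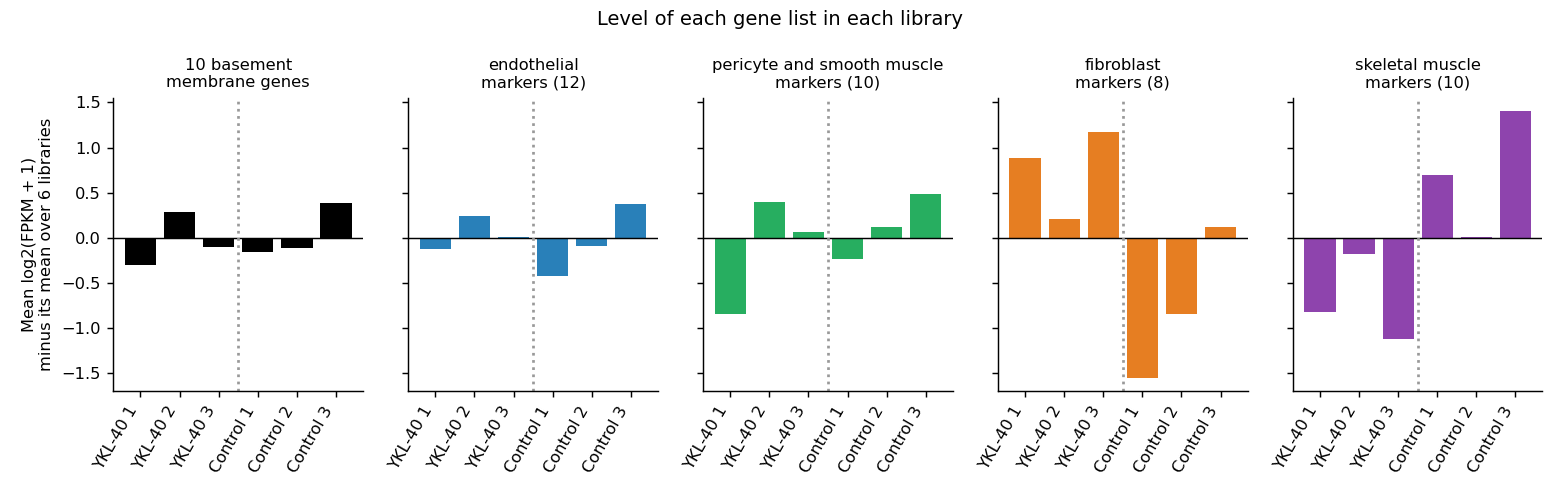
Mean log2(FPKM + 1) of the 10 basement membrane genes and of 4 marker lists in each of the 6 libraries, minus the mean over the 6 libraries (bars, y axis). The basement membrane genes, the endothelial and the pericyte markers are highest in the second YKL-40-labelled and the third control library. In all YKL-40-labelled libraries the mean of the fibroblast list is higher, and that of the skeletal muscle list lower, than in any control.

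Other cell type markers differed in other ways. The fibroblast list had a mean log2 level of 3.92 ± 0.50 in the YKL-40-labelled libraries and 2.41 ± 0.84 in the controls, with 0 of 7 tested markers past limma's adjusted threshold and 7 at an unadjusted p under 0.05. The groups of 4 of these 7 did not overlap. The most abundant genes of the fibroblast list, Col3a1 and Col1a1, encode fibrillar collagens, and their groups overlapped. Col3a1 had 123, 68.6 and 143 FPKM in the YKL-40-labelled libraries and 9.41, 24.7 and 73.7 FPKM in the controls. The list of leukocyte and macrophage markers had a mean log2 level of 3.58 ± 0.36 in the YKL-40-labelled libraries and 2.31 ± 0.51 in the controls (SD, n = 3 each), with 0 of 7 tested markers past the adjusted threshold and 7 at an unadjusted p under 0.05 in limma. C1qa, a complement subunit of macrophages, had 66.2, 63.2 and 99.2 FPKM in the YKL-40-labelled libraries and 12.6, 21.7 and 32.3 FPKM in the controls, and Cd68 averaged 25.0 ± 6.59 FPKM in the YKL-40-labelled libraries and 13.7 ± 8.26 FPKM in the controls. Skeletal muscle markers had a mean log2 level of 0.96 ± 0.48 in the YKL-40-labelled libraries and 2.37 ± 0.69 in the controls (SD, n = 3 each). The groups of 6 of 7 tested muscle markers did not overlap, 0 passed in limma and 6 were at an unadjusted p under 0.05. Over all tested genes, 0.436% passed in limma, and 10.3% were higher and 14.2% lower without overlap. At an unadjusted p under 0.05, 8.71% of them were higher and 9.24% lower. Tnnt3, a fast muscle troponin, averaged 2.49 ± 3.03 FPKM in the YKL-40-labelled libraries and 30.3 ± 22.7 FPKM in the controls. Mylpf, a muscle myosin light chain, averaged 2.63 ± 2.68 FPKM in the YKL-40-labelled libraries and 16.1 ± 9.09 FPKM in the controls. Of the adipocyte markers 2 were tested, Fabp4, at 72.6 ± 17.2 FPKM in the YKL-40-labelled libraries and 75.2 ± 16.7 FPKM in the controls, and Cfd, at 3.21 ± 5.10 FPKM in the YKL-40-labelled libraries and 1.82 ± 1.70 FPKM in the controls, and 0 passed in limma or had an unadjusted p under 0.05. The untested adipocyte markers Adipoq, Plin1, Cidec and Lep averaged only 0.410, 0.259, 0.167 and 0.0872 FPKM over the 6 libraries. All of them were listed at 0 in the first YKL-40-labelled library, where Fabp4 had 82.6 FPKM. The keratinocyte markers Krt14, Krt1, Krt15 and Lor were listed at 0 in every library, and Krt10 and Krt5 did not exceed 0.119 FPKM. The part of any of these cells in the levels of the 10 genes was not tested.

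For 4 genes of largest spread over the 6 libraries, the genes most alike in pattern were taken by the smallest mean absolute difference of centred log2(FPKM + 1) among tested genes. For Nid2 these were Unc5b (0.091), a netrin receptor, Pdgfrb (0.11), the PDGF receptor of pericytes, and Cd93 (0.12), a receptor of endothelial and myeloid cells. Unc5b had 2.71, 7.20 and 4.24 FPKM in the YKL-40-labelled libraries and 2.92, 4.17 and 7.28 FPKM in the controls. For Lamb1 they were Pde2a (0.071), a phosphodiesterase, Cxcr4 (0.084), a chemokine receptor, and Nt5e (0.085), the ectonucleotidase CD73. For Nid1 they were Adra2a (0.036), an adrenergic receptor, the growth factor gene Igf1 (0.054) and Pde2a (0.060). For Lama5 they included Padi2 (0.066), a peptidylarginine deiminase, and Micall2 (0.069), an adaptor protein gene. Some of these genes were low: Adra2a did not exceed 1.87 FPKM, Igf1 1.77 FPKM, Nt5e 3.00 FPKM and Pde2a 3.21 FPKM. Changes of low genes come out too small on this scale, so their fold changes can differ from those of Nid1 and Lamb1.

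Within the family, Col4a1 was the second closest of 11240 genes to Col4a2, at a mean absolute difference of 0.088, and Col4a2 was at rank 16 for Col4a1. Nid1 was at rank 19 for Lamb1, and Lamb1 at rank 13 for Nid2. The closest gene of the family was Col4a1 at rank 27 for Hspg2 and Lamb1 at rank 29 for Nid1. For 4 genes the closest of the family had a later rank. It was Lama4 at rank 230 for Lama5 (0.16) and Col4a1 at rank 549 for Lama4 (0.13). It was Col4a1 at rank 869 for Lamc1 (0.098) and Col4a2 at rank 3069 for Sparc (0.21). For Lama5, Lama4 and Lamc1 these differences were below that of Lamb1 for Nid2 (0.17), so a late rank did not mean a large difference. Lamc1 was itself at rank 35 for Col4a1.

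Related genes were read from 5 lists, and 0 of their 64 tested genes passed in limma (0.436% of all tested genes did). Among other basement membrane components, 13 of 19 were tested, with a median log2 difference of -0.0082. In the limma fit 1 gene was higher and 1 lower at an unadjusted p under 0.05 (8.71% and 9.24% of all tested genes). Sparcl1, a relative of Sparc, had 275, 246 and 267 FPKM in the YKL-40-labelled libraries and 281, 308 and 308 FPKM in the controls, and its groups did not overlap (-0.19 ± 0.092, limma adjusted p = 0.333). Fbln1, chosen after its values were seen, encodes the matrix protein fibulin-1 and had 26.9, 31.0 and 28.8 FPKM in the YKL-40-labelled libraries against 17.0, 19.3 and 21.1 FPKM in the controls. Its groups did not overlap, and the difference of 0.57 ± 0.11 did not pass (limma adjusted p = 0.0780). Tinagl1, a laminin-binding matrix protein gene, averaged 90.7 ± 5.13 FPKM in the YKL-40-labelled libraries and 79.5 ± 15.7 FPKM in the controls. Agrn encodes agrin, a heparan sulfate proteoglycan that links laminin to dystroglycan. It had 38.7, 49.97 and 28.2 FPKM in the YKL-40-labelled libraries against 58.6, 56.2 and 56.8 FPKM in the controls. Every YKL-40-labelled value was below every control, and the difference of -0.58 ± 0.19 did not pass (limma adjusted p = 0.186). In this list 1 tested gene was higher and 2 were lower without overlap of the groups (10.3% and 14.2% of all tested genes).

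Of the genes that fold, export and crosslink collagens, 0 of 20 tested passed (0.436% of all tested genes did). In limma 2 were higher and 2 lower at an unadjusted p under 0.05 (8.71% and 9.24% of all tested genes). The differences were above 0 for 17 of 20, with a median of 0.21. Over all tested genes 4748 of 11241 were above 0, with a median of -0.041. P4hb, the protein disulfide isomerase subunit of prolyl 4-hydroxylase, had 1013, 812 and 742 FPKM in the YKL-40-labelled libraries and 599, 685 and 716 FPKM in the controls (0.35 ± 0.14, limma adjusted p = 0.255). Serpinh1, the collagen chaperone HSP47, averaged 441 ± 109 FPKM in the YKL-40-labelled libraries and 409 ± 205 FPKM in the controls. Ppib, cyclophilin B, averaged 118 ± 4.14 FPKM in the YKL-40-labelled libraries and 104 ± 6.79 FPKM in the controls (SD, n = 3 each). These enzymes also serve the fibrillar collagens, whose marker genes Col1a1 and Col3a1 had higher means in the YKL-40-labelled libraries, and this was not tested apart.

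Of the receptors, 12 of 14 were tested, with a median difference of -0.0996. In limma 0 were higher and 2 lower at an unadjusted p under 0.05 (8.71% and 9.24% of all tested genes). Without overlap of the groups, 0 were higher and 2 lower (10.3% and 14.2% of all tested genes). Itgb1, the β1 integrin of most laminin and collagen receptors, had 392, 414 and 415 FPKM in the YKL-40-labelled libraries and 434, 439 and 416 FPKM in the controls. Its groups did not overlap, and its difference of -0.077 ± 0.084 was small and did not pass (limma adjusted p = 0.667). Ddr2, a collagen receptor kinase, averaged 246 ± 44.8 FPKM in the YKL-40-labelled libraries and 215 ± 25.0 FPKM in the controls, and Sdc4, a syndecan, averaged 87.4 ± 21.3 FPKM in the YKL-40-labelled libraries and 63.6 ± 7.95 FPKM in the controls (SD, n = 3 each). Dag1 was chosen after its values were seen. It encodes dystroglycan, the receptor of laminin, perlecan and agrin, and had 9.28, 96.7 and 11.7 FPKM in the YKL-40-labelled libraries against 103, 77.7 and 80.1 FPKM in the controls. The first and the third YKL-40-labelled libraries were far below the other 4 libraries, and the second lay inside the control range. The log2 difference of -1.90 ± 0.77 did not pass (limma adjusted p = 0.263). It was called only without the second YKL-40-labelled library and with array quality weights. Over all tested genes these settings called 238 of 11242 and 1111 of 11241.

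Of proteases and their inhibitors, 15 of 18 were tested, with 12 differences above 0 and a median of 0.22. Of all 11241 tested genes 4748 were above 0, with a median of -0.041. In limma 3 of the 15 were higher and 1 lower at an unadjusted p under 0.05 (8.71% and 9.24% of all tested genes). Hpse, the heparanase that cuts the chains of perlecan, averaged 112 ± 8.92 FPKM in the YKL-40-labelled libraries and 97.5 ± 23.4 FPKM in the controls. Adamts1, a secreted metalloproteinase, averaged 85.7 ± 24.1 FPKM in the YKL-40-labelled libraries and 83.3 ± 13.6 FPKM in the controls. Mmp14, a membrane-bound metalloproteinase, averaged 59.2 ± 10.0 FPKM in the YKL-40-labelled libraries and 73.4 ± 6.06 FPKM in the controls (SD, n = 3 each). None of these 3 passed (limma adjusted p from 0.277 to 0.977). Mmp3, stromelysin, was chosen after its values were seen. It had 15.5, 2.63 and 12.2 FPKM in the YKL-40-labelled libraries against 0.0758, 0.772 and 2.54 FPKM in the controls, with the second YKL-40-labelled library just above the third control. The difference of 2.29 ± 0.63 did not pass (limma adjusted p = 0.139). It was called without the second YKL-40-labelled library (as were 238 of 11242 genes) and with array quality weights (1111 of 11241).

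**Figure D5:**
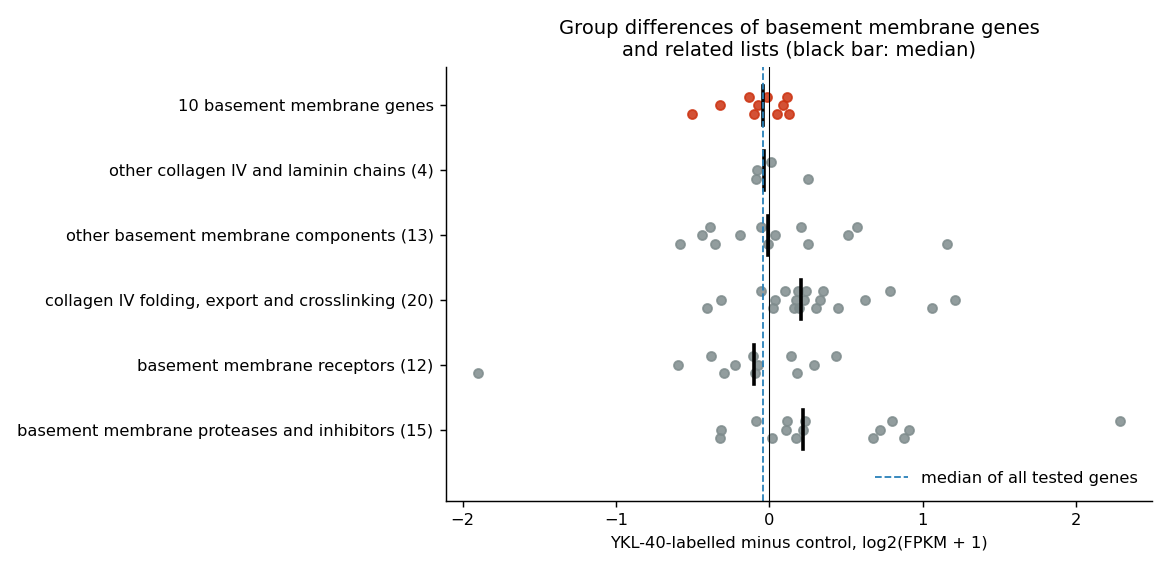
Log2(FPKM + 1) difference, YKL-40-labelled minus control (x axis), of each tested gene (points) of the 10 basement membrane genes and the 5 related lists, with the number tested in parentheses, each list's median as a black bar and the median of all tested genes as a dashed line. The 10 genes have a median of -0.043, beside -0.041 over all tested genes, the lowest point among the receptors is Dag1 at -1.90, and the highest among the proteases is Mmp3 at 2.29.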

How the data were processed

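The deposited table holds 1 FPKM value per gene and library for 6 tumour libraries, which the authors made from 2 µg of total RNA with the TruSeq RNA kit version 2, per the labels' protocols. Per the submitters' processing notes, HISAT2, StringTie, limma, DESeq2 and bcl2fastq 2.0 were used, with the build mm10. Which tool made the values, the annotation and the read totals are not given in the sources used here, so depth is unknown and no counting interval is given. From low values, library depths relative to the first control were estimated at 0.953, 1.21 and 1.13 (YKL-40-labelled) and at 1, 1.11 and 1.33 (controls).

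The deposited FPKM were analysed as log2(FPKM + 1), a scale on which changes of low genes come out too small. Genes of mean FPKM of at least 1 (11241) were tested with limma 3.58.1 in R 4.3.3, two-sided, with trended variances and Benjamini-Hochberg adjustment over all of them (threshold 0.05). Ratios were tested by exact permutation in Python 3.11.15. Scripts were tested on simulated data. Positions are from GENCODE M21 and promoters from RefSeq GRCm38.p6.

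The 10 genes and the lists were chosen with earlier results of these data known. Named were the 10 genes, all collagen IV and laminin chains, the 3 most abundant tested genes of each related list and any called, the 2 most abundant of marker lists, and the 3 nearest patterns of the 4 most variable of the 10. Of the genes this rule takes, 2 are not reported here. Alternatives were other pseudocounts, filters, scalings, no variance trend, a replicate block, array weights and leaving out each library.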

Additional observations from a re-analysis of the deposited data

How the results depend on the processing

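No alternative called any of the 10 genes (0 in each of 15), and the lowest adjusted p was 0.0649, for Lama5 with array quality weights. Some alternatives called almost no gene at all, such as 0 of 11269 without the second control and 1 of 16417 without a filter. The most, 1111 of 11241, were called with array quality weights. Differences of Lama4 and Lama5 stayed below 0 throughout. Leaving out 1 library at a time gave differences from -0.27 to 0.087 for Col4a1, -0.17 to 0.24 for Col4a2, -0.36 to 0.17 for Lamb1, -0.13 to 0.078 for Lamc1, -0.088 to 0.33 for Nid1, -0.22 to 0.46 for Nid2, -0.33 to 0.077 for Hspg2, -0.017 to 0.32 for Sparc, -0.48 to -0.15 for Lama4 and -0.73 to -0.32 for Lama5. Elsewhere the sign turned for Lamc1 (0.033 with median of ratios scaling, 0.034 with array quality weights) and for Col4a1 (0.0030 with array quality weights). The cause was not tested. The number of the 10 genes whose groups did not overlap was 0 to 3 without 1 library, while 31.1% to 41.6% of all tested genes did not overlap in these settings. It was 3 without the second YKL-40-labelled library (41.6% of tested genes), 1 without the second control (Lama5, 31.1%) and 1 without the third control (Sparc, 37.8%). The log2 ratio difference ran from -0.19 to -0.039 for Col4a1 to Col4a2, from -0.0042 to 0.35 for Lama4 to Lama5 and from -0.16 to 0.24 for Nid1 to Nid2.

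Counts over all genes moved more. The 41 higher genes were 1 without a filter, 110 with the replicate block, 665 with array quality weights and 0 to 198 without 1 library. The 8 lower genes were 0 without a filter, 4 with a filter at 5 FPKM, 446 with array quality weights and 0 to 40 without 1 library. With 0 called without the second control, 1345 had an unadjusted p under 0.05 in limma. Related genes called were 1 with the replicate block (Tgm2) and 7 with array quality weights (Agrn, Dag1, Fbln1, Htra1, Mmp3, P3h2 and Papln). Without 1 library they were 0 to 2 (Dag1 and Mmp3 without the second YKL-40-labelled library, Fbln2 without the third control). Over all tested genes, 120 of 11241 were called with the replicate block and 1111 of 11241 with array quality weights. The calls were 238 of 11242 without the second YKL-40-labelled library and 209 of 11223 without the third control. The deviations of same-numbered libraries had correlations of -0.083, -0.19 and 0.0017 over genes, so the numbers were not taken as pairs. Read totals are not known, so chains listed at or near 0, such as Lama1 and Lamb3, have no stated detection limit.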

Other observations

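Type IV collagen was also set against fibrillar collagen. The ratio of Col4a1 to Col1a1, chosen after the values were seen, was 0.391, 0.860 and 0.381 in the YKL-40-labelled libraries and 7.82, 1.74 and 0.689 in the controls. Col1a1, an α chain of type I collagen, had 103, 77.8 and 126 FPKM in the YKL-40-labelled libraries and 6.88, 25.7 and 90.9 FPKM in the controls. The mean log2 ratio was -0.99 ± 0.67 in the YKL-40-labelled libraries and 1.08 ± 1.77 in the controls (SD, n = 3 each), a difference of -2.07 that did not pass (exact permutation test, two-sided, p = 0.2, with 0.1 the lowest value possible). It was -1.12 without the first control and -2.87 without the third. The third control lay within the range of the YKL-40-labelled libraries.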
